A study of Mus musculus with 4 samples.

Results

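The genes of the translation initiation and elongation factors were examined in the vermis of the mouse cerebellum, in tissue enriched for granule cells (GCE). They were chosen by name, as all mouse symbols that begin with Eif or Eef followed by a digit, and 69 of the 24532 gene identifiers met this rule. RNA-seq of bulk tissue was performed for 2 WT and 2 Kdm3b+/- mice, each of which gave 1 library. The mice were adult male littermates. The mutant allele carries a gene-trap vector between exons 12 and 13 of Kdm3b, which encodes a histone H3 lysine demethylase, and it came from 1 embryonic stem cell clone (YTC406) whose line was backcrossed to C57Bl/6N and then to C57Bl/6J mice. Every cell of the Kdm3b+/- mice carries the trapped allele, and their other allele is intact. The GCE part was dissected manually out of slices, whereas the sample labels name the tissue only as cerebellum. Values are TPM, a transcript abundance scaled to transcript length and summing to 1000000 in each library, so that levels of different genes can be set side by side.

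Initiation factors bring the initiator tRNA and the small ribosomal subunit to the 5′ end of an mRNA and let the subunit scan to the start codon, where the large subunit joins. Elongation factors then deliver each aminoacyl-tRNA to the ribosome and move the ribosome along the mRNA. Both steps are regulated by phosphorylation: kinases of eIF2 lower initiation on most mRNAs while favouring a few such as Atf4, and a kinase of eEF2 slows elongation. In neurons, these controls are known for their part in the protein synthesis that long-lasting plasticity and memory require. The comparison between the genotypes therefore asked whether mRNAs of this machinery differed in the GCE tissue of Kdm3b+/- mice.

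The targeted gene was examined first. The TPM of Kdm3b was 9.10 and 11.0 in WT mice and 8.30 and 7.90 in Kdm3b+/- mice, giving a log2 fold change of −0.27 (standard error 0.17, limma adjusted p = 0.424). Both Kdm3b+/- libraries were thus below both WT libraries, and the mRNA difference did not pass the test. For the protein, the paper reports a significant reduction in the vermis and flocculus of Kdm3b+/- mice by immunoblot. Sequencing depth, derived from coverage divided by FPKM, was 4.92 to 6.69 aligned gigabases per library. Of the marker lists, the 10 granule cell markers summed to 3923 to 4669 TPM in every library, and the oligodendrocyte markers to between 14758 and 17617 TPM, so the tissue held more than granule cells. WT replicate 1 stood apart, with 1569 TPM of Purkinje cell markers against 675 to 878 in the other libraries, and 591 TPM of blood markers against 136 to 156. All 8 Purkinje cell markers had a lower mean in Kdm3b+/- mice, and none of them was called. In their sum, however, WT replicate 2 (675 TPM) lay below both Kdm3b+/- libraries (878 and 707 TPM), so the higher WT level rested on WT replicate 1. Without overlap, both Kdm3b+/- libraries were below both WT libraries in the sums of the interneuron markers (169 and 124 against 116 and 108 TPM) and of the meninges markers (41.9 and 34.8 against 29.2 and 28.9 TPM). Single markers of these lists were split, however. Of the 5 interneuron markers tested, 3 had a higher and 2 a lower mean, and of the 3 meninges markers tested, 1 was higher and 2 were lower. The astrocyte marker Aqp4 was called higher and the oligodendrocyte marker Mobp was called lower, 1 of each list. Their lists did not follow them. Of the 7 astrocyte and Bergmann glia markers, 2 had a higher and 5 a lower mean, and the oligodendrocyte markers were 3 higher and 3 lower. The choroid plexus markers Ttr and Folr1 were at 0 in at least 1 library. In bulk tissue, fewer cells of a type and less RNA per cell cannot be told apart, and the part of cell composition in the results below was not tested.

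Translation factor mRNAs were abundant. The mean TPM over the 4 libraries reached 1 for 65 of the 69 genes, and these were among the 13652 genes tested. The median level of the 65 genes was 92.2 TPM, compared with 19.0 TPM for all genes tested. Of the 65, 56 lay at or above the median of all genes and 18 were among the highest 10%, above 153 TPM. The highest was Eif1, which keeps the scanning ribosome from starting at wrong codons, with 1297 and 1366 TPM in WT mice and 1465 and 1348 TPM in Kdm3b+/- mice. Eif5a, Eif4h, Eef1a1 and Eif4a2 followed by mean level. The order of Eif1 and Eif5a was not fixed, since Eif1 was at 1331 ± 48.9 TPM and Eif5a at 1119 ± 156 TPM in WT mice (SD, n = 2), and at 1406 ± 82.9 and 1446 ± 129 TPM in Kdm3b+/- mice (SD, n = 2).

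The 4 genes that were not tested were scarcely detected. Eif4e1b, an eIF4E form of the germ line, was listed at 0 in all 4 libraries. Eif4a3l1, a copy of the helicase gene Eif4a3, was listed at 0.0268 TPM in Kdm3b+/- replicate 1 and at 0 in the others. The methyltransferase gene Eef1akmt3 had 0.0804 TPM in WT replicate 2, 0.211 TPM in Kdm3b+/- replicate 1 and 0 in the other 2 libraries. Eif3j1 had between 0.317 and 0.378 TPM, and its paralog Eif3j2 had 51.0 to 65.6 TPM. RefSeq (GRCm38.p6) places Eif3j2 on chromosome 18, whereas the deposited tables place both genes on chromosome 2, with starts at 122028580 and 122028583 and ends at 122053632 and 122053631, so reads of this locus cannot be divided between them and both values are uncertain. Their sum was 65.9 and 51.4 TPM in WT mice and 62.8 and 61.6 TPM in Kdm3b+/- mice, and the groups overlapped.

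**Figure D1:**
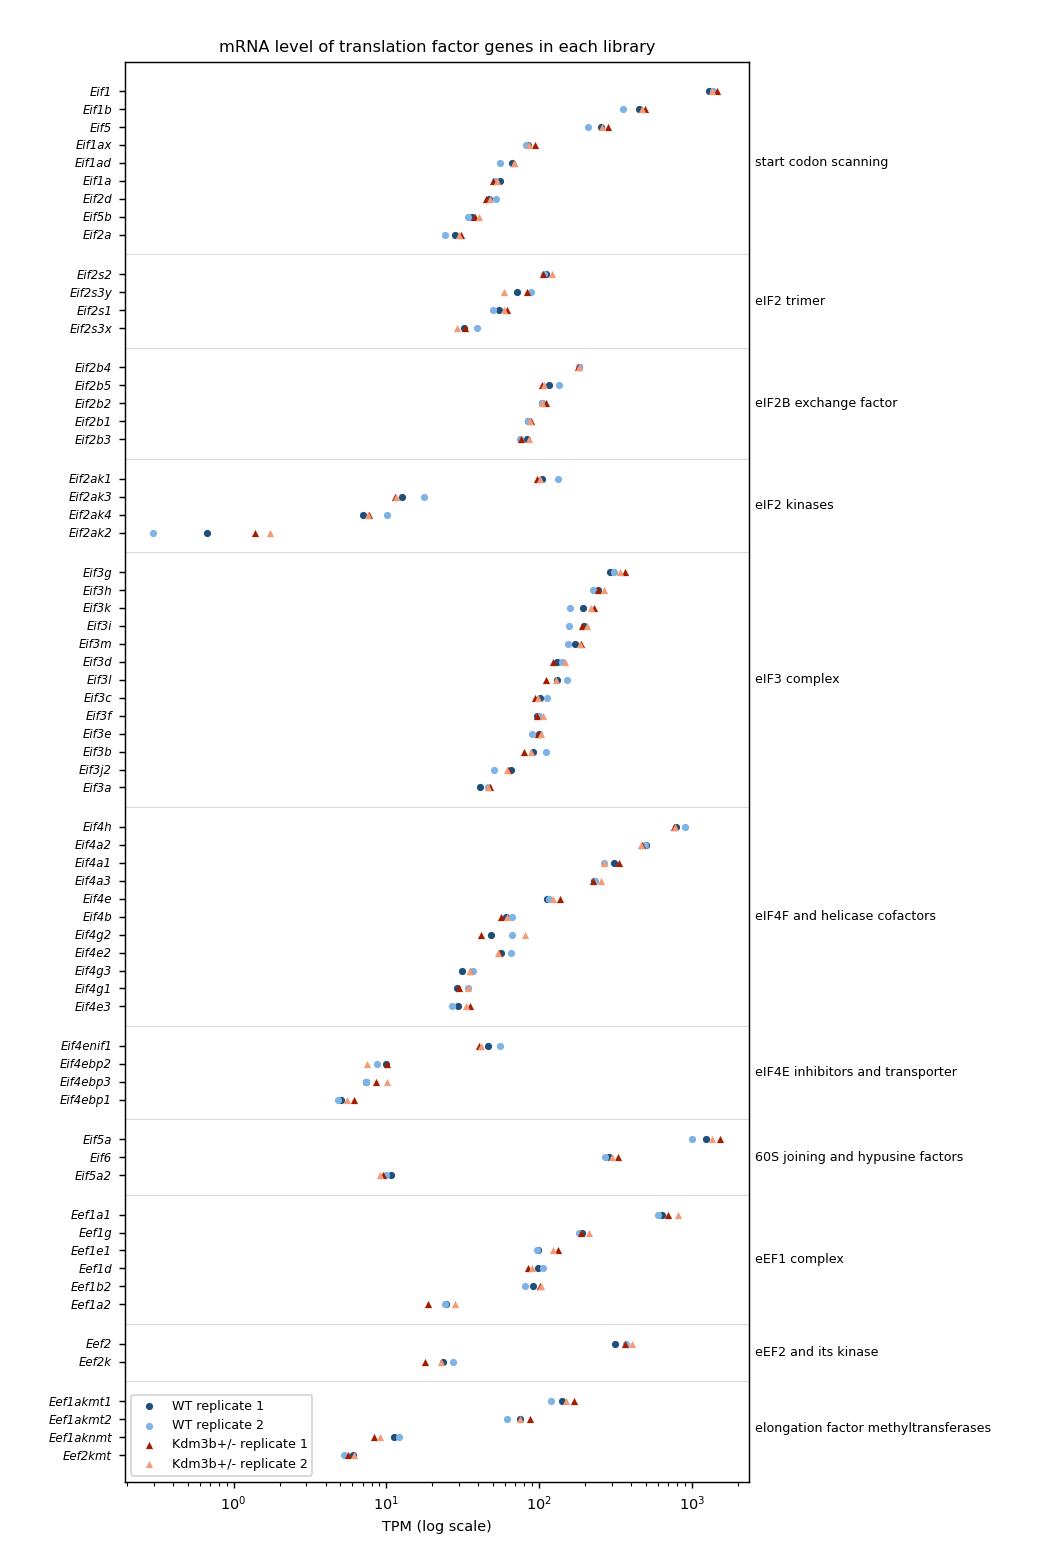
TPM on a log axis of the 65 tested translation factor genes in each of the 4 libraries, grouped by role and ordered by mean level within a role. The levels run from about 1 TPM for Eif2ak2 to 1369 TPM for Eif1, and for most genes the 4 libraries lie close together, whereas the WT and Kdm3b+/- points of Eif2ak2 are far apart.

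No translation factor gene was called different between Kdm3b+/- and WT mice, where a call required both a limma adjusted p under 0.05 and a fold over 1.2. Of all 13652 genes, 63 were called, or 0.461%. The adjusted p of the 65 genes ran from 0.160 for Eif2ak2 to 0.971 for Eif4g2. The paper, whose test used counts from the same mice, lists Eif2ak2 among its genes higher in Kdm3b+/- mice. It reports that those higher genes belonged mostly to pathways of translation and biosynthesis. Its examples for translation include Eif2ak2 and also ribosomal protein genes, which are not among the factors examined here. At an unadjusted p under 0.05, 4 genes were higher in Kdm3b+/- mice (Eif2ak2, Eif5a, Eef1e1 and Eif3k) and 1 was lower (Eef1aknmt). These are 6.15% and 1.54% of the 65 genes, beside 5.47% and 11.5% of all genes tested, or 7.69% beside 17.0% in either direction. Eif2ak2 reached the minimum level only through the Kdm3b+/- mice, where it was higher, so its place in the count was favoured by the filter. With a minimum mean TPM of 5, which it did not reach, 3 of 64 genes (4.69%) were higher, beside 6.14% of all genes, and 1 was lower. Single libraries moved these counts. With each library left out, the log2 fold change ran from 0.61 to 0.97 for Eif2ak2, 0.23 to 0.52 for Eif5a and 0.32 to 0.44 for Eef1e1. It ran from 0.20 to 0.49 for Eif3k and from −0.45 to −0.33 for Eef1aknmt.

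The changes of most factors were small. The ratio of the Kdm3b+/- to the WT mean lay between 0.8 and 1.25 for 57 of the 65 genes, or 87.7%, compared with 69.2% of all genes tested. The lowest ratio was 0.742, for Eef1aknmt, and the highest was 3.22, for Eif2ak2. The log2 fold changes had an SD of 0.21 over the 65 genes and 0.32 over all genes. Since the translation factor genes are more abundant than most genes, this narrower range is a description of these genes and was not tested against genes of a like level.

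The direction of the differences leaned upward. Both Kdm3b+/- values lay above both WT values for 23 genes (35.4%, beside 19.2% of all genes tested) and below both for 15 genes (23.1%, beside 32.0%), and the groups overlapped for 27. In either direction this is 58.5%, beside 51.3% of all genes. The means of 41 genes were higher and those of 24 genes lower than in WT mice, and the median log2 fold change was 0.055, compared with −0.070 over all genes tested. The split depended on the scaling between libraries. With median-ratio scaling it was 35 above and 10 below (beside 24.9% and 25.4% of all genes), with FPKM 34 and 11 (beside 25.4% and 26.2%), and with a correction for transcript length and GC content 30 and 7 (beside 24.9% and 24.0%). With a library left out, 1 mouse is compared with 2, which raises such counts for all genes. The counts were then 31 and 22 without WT replicate 1 (47.7% and 33.8%, beside 30.7% and 51.8% of all genes), and 29 and 17 without WT replicate 2 (44.6% and 26.2%, beside 32.0% and 42.6%). They were 36 and 19 without Kdm3b+/- replicate 1 (55.4% and 29.2%, beside 29.4% and 40.4%), and 28 and 24 without Kdm3b+/- replicate 2 (43.1% and 36.9%, beside 27.6% and 48.2%).

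Together, the mRNAs of all 69 genes held 1.06% and 1.04% of all TPM in WT mice (1.05% ± 0.0153, SD, n = 2) and 1.14% and 1.13% in Kdm3b+/- mice (1.14% ± 0.0101, SD, n = 2). Both Kdm3b+/- libraries lay above both WT libraries, with a difference of 0.0838 percentage points. An exact two-sided permutation test gave p = 0.333, which is the smallest p that 2 mice against 2 allow. Without Eif1, the most abundant of these genes, the shares were 0.934% and 0.906% in WT mice and 0.998% and 0.995% in Kdm3b+/- mice. The means of Eif1 were 1331 TPM in WT and 1406 TPM in Kdm3b+/- mice. Gaps in mean TPM were larger for Eif5a (1119 and 1446) and Eef1a1 (621 and 754), while 24 of the 65 tested genes were lower. Shares without Eif5a or Eef1a1 were not computed, so the difference in share can rest largely on single abundant genes.

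**Figure D2:**
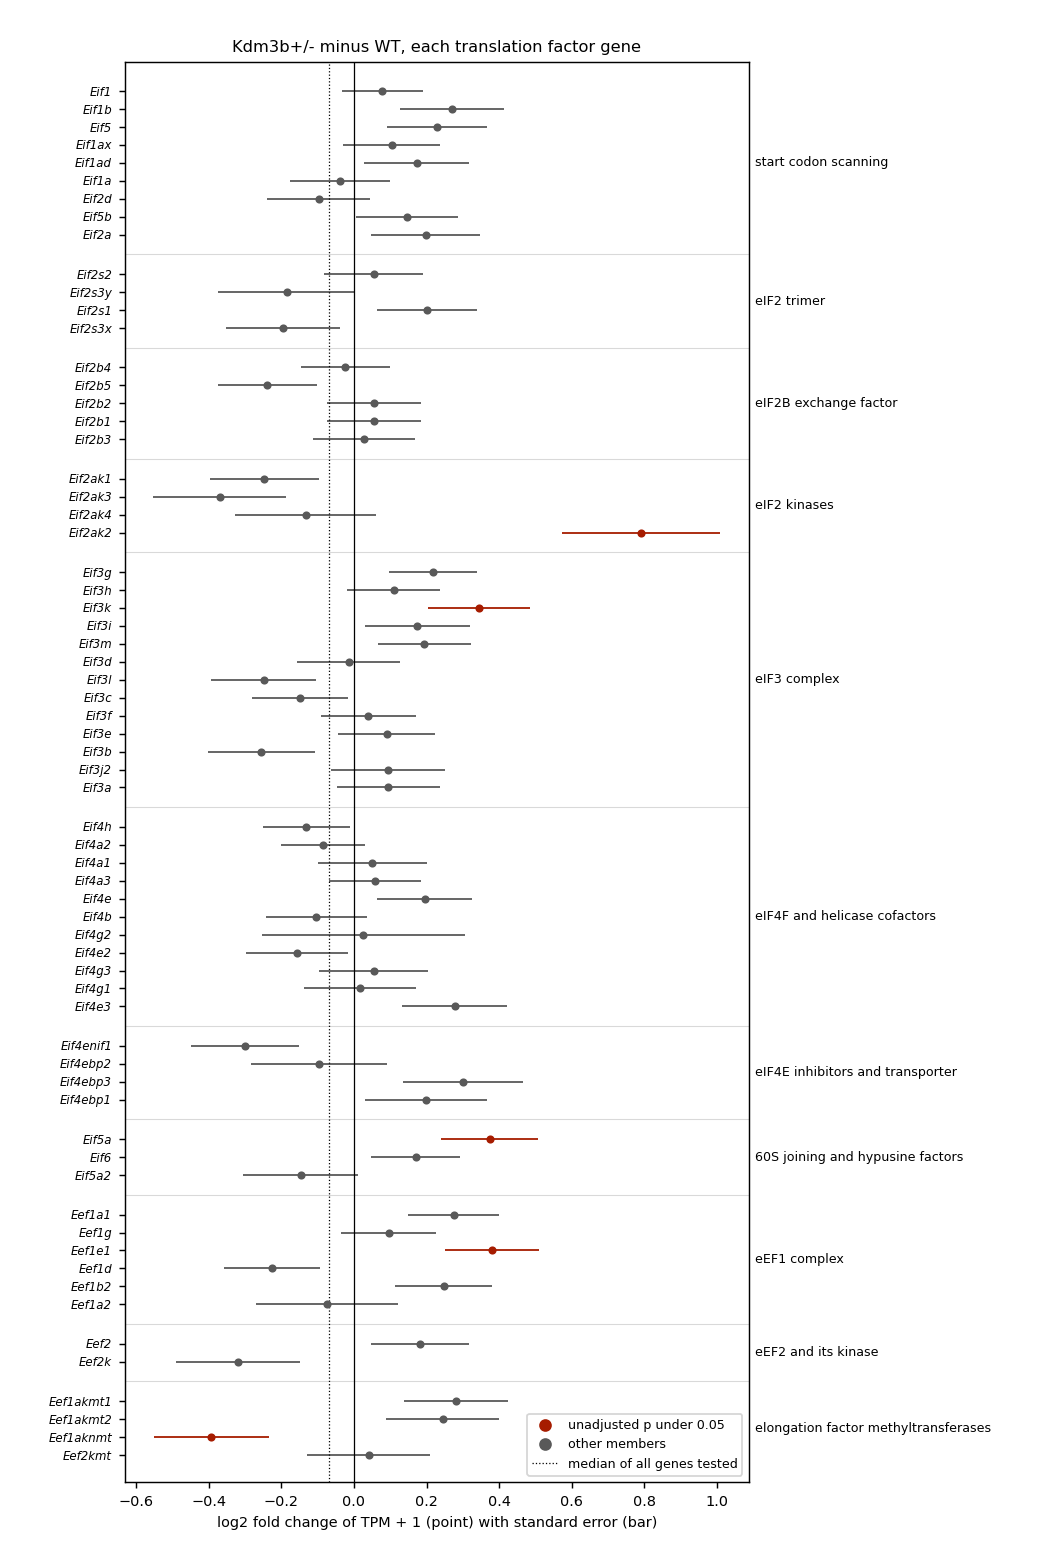
Log2 fold change of TPM + 1 (Kdm3b+/- minus WT, points) with its standard error (bars) for the 65 tested translation factor genes, grouped by role. Eif2ak2 lies at 0.79 and all other points between −0.39 and 0.38, and the dotted line marks the median of all genes tested at −0.070.

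Among the 4 kinases of eIF2, 1 lay above WT without overlap, 2 lay below and 1 overlapped, and none was called. These enzymes phosphorylate the alpha subunit of eIF2 under different stresses: Eif2ak1 (HRI) under lack of heme, Eif2ak2 (PKR) with double-stranded RNA, Eif2ak3 (PERK) with unfolded proteins in the endoplasmic reticulum, and Eif2ak4 (GCN2) under lack of amino acids. Their levels differed widely, and Eif2ak1 was the most abundant of the 4 and Eif2ak2 the least.

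Eif2ak2 (NCBI gene 19106, chromosome 17 from 78852550 to 78882572, reverse strand) had 0.667 and 0.298 TPM in WT mice (0.482 ± 0.261, SD, n = 2) and 1.38 and 1.72 TPM in Kdm3b+/- mice (1.55 ± 0.240, SD, n = 2). Both WT libraries were below 1 TPM and both Kdm3b+/- libraries were above it, so the gene passed the minimum level only through the Kdm3b+/- mice. The log2 fold change of TPM + 1 was 0.79 (standard error 0.22, limma adjusted p = 0.160), which did not pass the test, and it was 0.61 to 0.97 when single libraries were left out. Its level was the lowest of the 65 genes.

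Eif2ak2 is known as a gene that interferon induces through an interferon-stimulated response element. Its sequence around the start site is shown because it was the factor with the largest difference. The 50 bases from chr17:78882543-78882592 (RefSeq, GRCm38.p6, reverse strand), which run from 20 bases before the start into the transcript, hold a match to a form of this element (capitals), which was searched on both strands as GAAA, any 2 bases and GAAAC:
Eif2ak2: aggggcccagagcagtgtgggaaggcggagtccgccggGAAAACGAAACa
The match begins at base 19 of the transcript. Of the 32851 RefSeq windows from 250 bases before to 50 bases after a start, 269 (0.819%) held the form. Windows were found for 53 of the 69 translation factor genes, and 2 of them, Eif2ak2 and Eif2s1, held it. The match describes these letters only.

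The other 3 kinases had lower means in Kdm3b+/- mice, and none passed the test. Eif2ak3 had 12.7 and 17.7 TPM in WT mice and 11.3 and 11.5 TPM in Kdm3b+/- mice, and the groups did not overlap (log2 fold change −0.37, standard error 0.18, limma adjusted p = 0.339). Its log2 fold change was −0.17 with the length and GC correction and −0.59 to −0.15 when single libraries were left out. Eif2ak1 had 105 and 132 TPM in WT mice and 96.5 and 102 TPM in Kdm3b+/- mice, also without overlap (log2 fold change −0.25, standard error 0.15, limma adjusted p = 0.421), and its log2 fold change was −0.076 with that correction and −0.41 to −0.084 when single libraries were left out. Eif2ak4 had 6.998 and 10.1 TPM in WT mice and 7.65 and 7.56 TPM in Kdm3b+/- mice, so that WT replicate 1 was the lowest library and the groups overlapped. In each of these kinases WT replicate 2 was the highest library. Over the 4 kinases the median log2 fold change was −0.19, which became −0.027 with the length and GC correction, and 0.010 without WT replicate 2. The median of all genes was −0.070, and 0.0018 and −0.037 in these 2 fits.

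**Figure D3:**
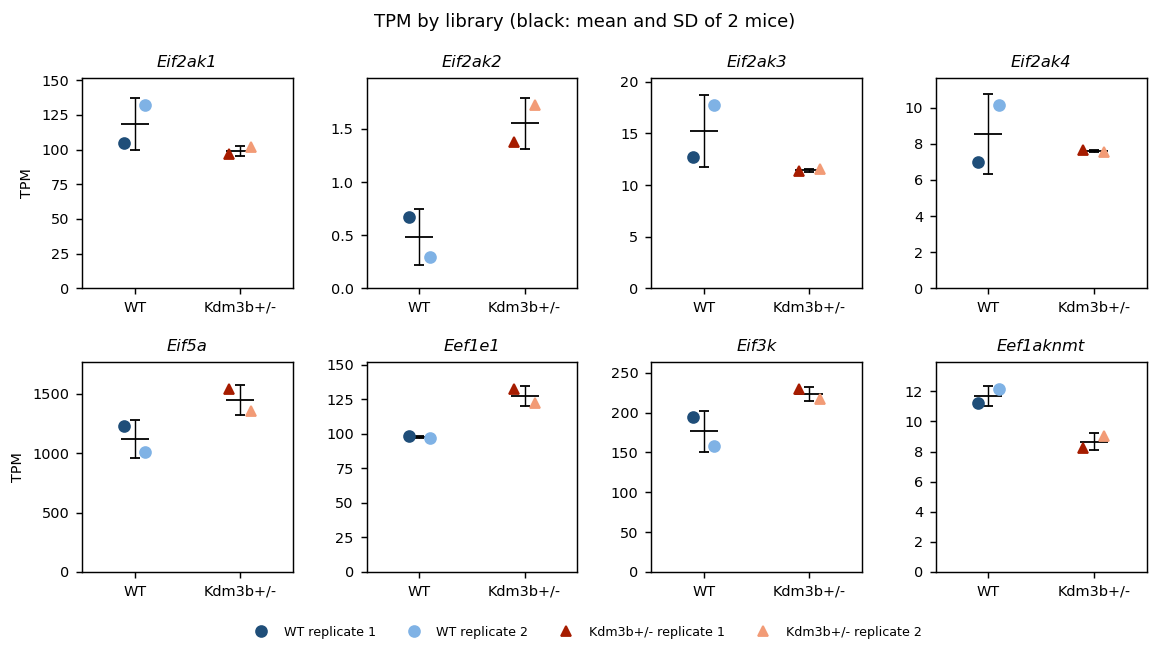
TPM in each library of the 4 eIF2 kinases (top row) and of the other 4 translation factor genes with an unadjusted p under 0.05 (bottom row); black bars give the mean and SD of 2 mice, and each axis starts at 0. Both Kdm3b+/- libraries lie above both WT libraries for Eif2ak2, Eif5a, Eef1e1 and Eif3k, below both for Eif2ak1, Eif2ak3 and Eef1aknmt, and between the WT libraries for Eif2ak4.

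The substrate of the kinases and its exchange factor had summed levels close to those of WT mice. The eIF2 trimer carries the initiator tRNA, and its 4 genes summed to 269 and 286 TPM in WT mice and 284 and 268 TPM in Kdm3b+/- mice. Eif2s1, the alpha subunit that the kinases phosphorylate, had 54.4 and 50.2 TPM in WT mice and 61.4 and 59.0 TPM in Kdm3b+/- mice, and was the only gene of the trimer whose groups did not overlap. Eif2s2, the beta subunit, had 110 and 108 TPM in WT mice and 106 and 122 TPM in Kdm3b+/- mice. The gamma subunit is encoded on both sex chromosomes: the X-linked Eif2s3x had 32.4 and 39.1 against 32.9 and 29.2 TPM, and the Y-linked Eif2s3y had 71.7 and 88.6 against 83.4 and 58.7 TPM. The Y-linked copy was thus 2.01 to 2.53 times as abundant as the X-linked copy in every mouse, with overlapping groups. Over the trimer genes the median log2 fold change was −0.066, and it was 0.0050 with median-ratio scaling and 0.0056 with the length and GC correction. The median of all genes moved likewise, from −0.070 to −0.0062 and 0.0018.

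The eIF2B complex reloads eIF2 with GTP and is the step that phosphorylated eIF2 blocks. Its genes summed to 573 and 580 TPM in WT mice and 559 and 567 TPM in Kdm3b+/- mice, which was below WT without overlap. The mean levels of the 5 subunits ran from 80.2 to 181 TPM. The highest was Eif2b4, with 184 and 182 TPM in WT mice and 178 and 181 TPM in Kdm3b+/- mice, and the lowest was Eif2b3, with 83.4 and 75.3 against 76.3 and 85.7 TPM. Both Kdm3b+/- libraries lay below both WT libraries for Eif2b4 and for Eif2b5, the catalytic subunit, which had 117 and 134 against 104 and 108 TPM. The log2 fold change of Eif2b5 was −0.24 (standard error 0.14, limma adjusted p = 0.394), −0.11 with the length and GC correction, and −0.34 to −0.14 when single libraries were left out. That of Eif2b4 was −0.024 and turned to 0.058 with the correction. Eif2b1 and Eif2b2 lay above WT without overlap, each with a ratio of means of 1.04. The median log2 fold change of the complex was 0.028, and it ran from −0.035 without Kdm3b+/- replicate 2 to 0.054 without WT replicate 1.

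Among the factors of scanning and start codon choice, 6 of 9 genes had both Kdm3b+/- libraries above both WT libraries (Eif1b, Eif5, Eif1ad, Eif1ax, Eif5b and Eif2a). None lay below, and 3 overlapped (Eif1, Eif1a and Eif2d), beside 19.2% above and 32.0% below of all genes. The group was not compared with the others by a test, and none of its genes was called. Eif1b, the paralog of Eif1, had 449 and 351 TPM in WT mice and 490 and 469 TPM in Kdm3b+/- mice (log2 fold change 0.27, standard error 0.14, limma adjusted p = 0.362, and 0.11 on the log2 scale with the length and GC correction). Eif5, which makes eIF2 hydrolyse its GTP at the start codon, had 253 and 209 against 280 and 260 TPM (log2 fold change 0.23, standard error 0.14, limma adjusted p = 0.419). For both, WT replicate 1 was close to the lower Kdm3b+/- library and WT replicate 2 was well below it. Eif2a, which can bring the initiator tRNA without eIF2, was the least abundant of the group, with 28.2 and 24.3 TPM in WT mice and 30.7 and 29.7 TPM in Kdm3b+/- mice. For these genes the median log2 fold change was 0.15, from 0.093 without WT replicate 2 to 0.22 with median-ratio scaling. The median of all genes was −0.070, and −0.037 and −0.0062 in these 2 fits. Eif2a overlaps Serp1, Eif1ad overlaps Banf1 and Eif5b overlaps Rev1, and the sources used here do not state whether strand was used in counting, so reads of these pairs could be shared.

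The eIF3 complex, the largest initiation factor, holds the small subunit and the mRNA together. Its 14 genes summed to 1860 and 1811 TPM in WT mice and 1926 and 1994 TPM in Kdm3b+/- mice, without overlap. The subunits were split: of the 13 tested, Eif3k, Eif3g and Eif3m lay above WT without overlap, Eif3b, Eif3l and Eif3c lay below, and 7 overlapped. With the length and GC correction, the log2 fold change of Eif3c was 0.014, those of Eif3b and Eif3l stayed negative at −0.045 and −0.19, and those of Eif3k, Eif3m and Eif3g stayed positive at 0.35, 0.13 and 0.083. The levels of the subunits, which are present in like amounts in the assembled complex, ran from 45.3 TPM for Eif3a, its large scaffold, to 326 TPM for Eif3g, which binds RNA.

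Eif3k (NCBI gene 73830, chromosome 7 from 28971372 to 28981888), an outer subunit, had 195 and 158 TPM in WT mice (177 ± 25.7, SD, n = 2) and 229 and 217 TPM in Kdm3b+/- mice (223 ± 8.58, SD, n = 2). The log2 fold change was 0.34 (standard error 0.14, limma adjusted p = 0.266). Eif3l, which pairs with Eif3k in the complex, went the other way, with 132 and 153 TPM in WT mice and 110 and 129 TPM in Kdm3b+/- mice (log2 fold change −0.25, standard error 0.15, limma adjusted p = 0.406). Eif3g had 293 and 310 against 363 and 339 TPM (log2 fold change 0.22, standard error 0.12, limma adjusted p = 0.383). Eif3b, a core subunit that binds RNA, had 90.7 and 110 against 79.8 and 87.8 TPM (log2 fold change −0.26, standard error 0.15, limma adjusted p = 0.402). Eif3a had 41.2 and 46.4 TPM in WT mice and 47.4 and 46.1 TPM in Kdm3b+/- mice, and the groups overlapped.

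The cap-binding complex eIF4F consists of the cap-binding protein eIF4E, the helicase eIF4A and the scaffold eIF4G, with eIF4B and eIF4H as helicase cofactors. Of the 11 genes tested, 2 lay above WT without overlap (Eif4e and Eif4e3) and 3 below (Eif4h, Eif4a2 and Eif4e2), and 6 overlapped. With the length and GC correction, the log2 fold changes of Eif4h and Eif4e2 turned to 0.049 and 0.0051, and that of Eif4a2 stayed at −0.074. The median of the group was 0.026, from −0.074 to 0.073 with libraries left out. Eif4h was the highest, with 786 and 903 TPM in WT mice and 767 and 771 TPM in Kdm3b+/- mice. The scaffold Eif4g2, which serves translation without the cap, had the largest standard error of the factors (0.28), with 48.5 and 66.6 TPM in WT mice and 41.4 and 80.7 TPM in Kdm3b+/- mice, so that the Kdm3b+/- libraries were the lowest and the highest of the 4.

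Of the eIF4E family, Eif4e had 113 and 115 TPM in WT mice and 137 and 124 TPM in Kdm3b+/- mice, and Eif4e2, which binds the cap without recruiting eIF4G and represses translation, had 56.6 and 65.0 against 54.9 and 53.7 TPM. The ratio of Eif4e2 to Eif4e was 0.503 and 0.564 in WT mice and 0.399 and 0.433 in Kdm3b+/- mice. The groups did not overlap, and the exact permutation test gave its minimum of p = 0.333. Eif4e3 had 29.4 and 26.8 TPM in WT mice and 35.1 and 33.4 TPM in Kdm3b+/- mice (log2 fold change 0.28, standard error 0.14, limma adjusted p = 0.354), and its ratio to Eif4e overlapped between the groups, at 0.261 and 0.232 against 0.255 and 0.269. The helicases Eif4a1 and Eif4a2 had 307 and 267 against 334 and 264 TPM, and 502 and 494 against 472 and 466 TPM. Their ratio, Eif4a1 over Eif4a2, was 0.612 and 0.542 in WT mice and 0.707 and 0.566 in Kdm3b+/- mice, which overlapped (exact permutation p = 0.667). The scaffolds Eif4g1 and Eif4g3 were nearly equal, with ratios of Eif4g3 to Eif4g1 between 1.03 and 1.17 in the 4 libraries. Eif4a2 overlaps Rfc4, with the same limit on strand.

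The inhibitors of eIF4E were scarce. The 4E-binding proteins hold eIF4E away from eIF4G until mTORC1 phosphorylates them, and their 3 genes had mean levels between 5.36 and 9.07 TPM. Eif4ebp1 had 5.02 and 4.82 TPM in WT mice and 6.11 and 5.49 TPM in Kdm3b+/- mice, and Eif4ebp2, the form known as the main brain 4E-BP, had 9.997 and 8.74 against 10.1 and 7.42 TPM. Their ratio, Eif4ebp1 over Eif4ebp2, was 0.502 and 0.551 in WT mice and 0.603 and 0.740 in Kdm3b+/- mice, without overlap (exact permutation p = 0.333, the smallest possible). Eif4ebp3 lies on chromosome 18, which also carries Kdm3b, at a distance of 1.82 Mb. It had 7.37 and 7.30 TPM in WT mice and 8.51 and 10.1 TPM in Kdm3b+/- mice (log2 fold change 0.30, standard error 0.17, limma adjusted p = 0.383), and the log2 fold change was 0.072 with the length and GC correction. The other member that the deposited tables place on this chromosome, Eif1a, lies 11.8 Mb from Kdm3b and overlapped between the groups, with 55.1 and 51.2 against 50.3 and 53.2 TPM. Eif4enif1, which carries eIF4E into the nucleus, had 46.1 and 55.4 TPM in WT mice and 40.2 and 41.5 TPM in Kdm3b+/- mice (log2 fold change −0.30, standard error 0.15, limma adjusted p = 0.339), and −0.12 with the length and GC correction.

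Eif5a was the most abundant factor with an unadjusted p under 0.05. The protein carries hypusine, a modified lysine, and helps the ribosome through stretches that stall it. Eif5a (NCBI gene 276770, chromosome 11 from 69916712 to 69921958) had 1230 and 1008 TPM in WT mice and 1537 and 1355 TPM in Kdm3b+/- mice, giving a log2 fold change of 0.37 (standard error 0.13, limma adjusted p = 0.229). Both Kdm3b+/- libraries lay above both WT libraries, and the log2 fold change was 0.23 to 0.52 when single libraries were left out. The paralog Eif5a2 had 10.8 and 9.90 TPM in WT mice and 9.45 and 9.02 TPM in Kdm3b+/- mice. The ratio of Eif5a2 to Eif5a was therefore 0.00876 and 0.00982 in WT mice and 0.00615 and 0.00666 in Kdm3b+/- mice, without overlap (exact permutation p = 0.333, the smallest possible). Eif6, which keeps the large subunit apart until it is ready to join, had 285 and 271 against 326 and 301 TPM.

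The eEF1 complex delivers aminoacyl-tRNA. Eef1a1 is its GTPase in most tissues and Eef1a2 the form of mature neurons and muscle, Eef1b2, Eef1d and Eef1g form the exchange factor, and Eef1e1 belongs to the multi-tRNA synthetase complex. Of the 6 genes, Eef1a1, Eef1b2 and Eef1e1 lay above WT without overlap, Eef1d lay below, and Eef1a2 and Eef1g overlapped. Eef1e1 (NCBI gene 66143, chromosome 13 from 38645691 to 38659028) had 98.3 and 97.0 TPM in WT mice (97.7 ± 0.922, SD, n = 2) and 132 and 122 TPM in Kdm3b+/- mice (127 ± 7.06, SD, n = 2), giving a log2 fold change of 0.38 (standard error 0.13, limma adjusted p = 0.216). With single libraries left out it was 0.32 to 0.44, and it was 0.40 with the length and GC correction.

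Eef1a1 had 641 and 602 TPM in WT mice and 694 and 814 TPM in Kdm3b+/- mice (log2 fold change 0.27, standard error 0.13, limma adjusted p = 0.307). Eef1a2 had 24.4 and 24.3 against 18.7 and 28.3 TPM. The form of mature neurons was thus a small part of eEF1A mRNA in this tissue: the ratio of Eef1a2 to Eef1a1 was 0.0380 and 0.0404 in WT mice and 0.0270 and 0.0348 in Kdm3b+/- mice, without overlap (exact permutation p = 0.333, the smallest possible). Of 11 paralog ratios computed in all, 4 did not overlap between the groups (those of Eef1a2, Eif5a2, Eif4e2 and Eif4ebp1), and the lowest exact permutation p adjusted over the 11 ratios was 0.917. For the TPM of single genes, the groups did not overlap in 51.3% of all genes tested. Ratios of other gene pairs were not computed, so this count is not a result about the paralogs. The ratios were computed without the length and GC correction, and the transcripts of a pair can differ in length. Eif5a has 1437 and Eif5a2 5027 bases, and Eif4ebp1 has 1997 and Eif4ebp2 5784 bases. Eef1a1 is known for many processed copies in the genome, so its reads could be divided and its level is uncertain. Of the exchange factor subunits, Eef1b2 had 90.6 and 81.3 against 102 and 102 TPM (log2 fold change 0.25, standard error 0.13, limma adjusted p = 0.372), and Eef1d had 97.8 and 106 against 84.5 and 89.3 TPM (log2 fold change −0.23, standard error 0.13, limma adjusted p = 0.408), which was −0.13 with the length and GC correction. Eef1g had 191 and 182 against 187 and 213 TPM.

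eEF2 moves the ribosome by a codon and is inhibited by its kinase. Eef2 had 313 and 368 TPM in WT mice and 363 and 408 TPM in Kdm3b+/- mice, so WT replicate 2 lay within the Kdm3b+/- range. With the length and GC correction its log2 fold change was 0.41. Eef2k, the kinase, had 23.3 and 27.4 TPM in WT mice and 17.8 and 22.6 TPM in Kdm3b+/- mice (log2 fold change −0.32, standard error 0.17, limma adjusted p = 0.370), which was −0.20 with the length and GC correction. The difference between the Kdm3b+/- libraries was larger than the gap between the groups, which was the distance from 22.6 to 23.3 TPM.

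Enzymes that methylate the elongation factors were split as well. Eef1aknmt (NCBI gene 71449, chromosome 1 from 162533672 to 162548345), which methylates eEF1A at its amino terminus and at a lysine, was the only factor below WT with an unadjusted p under 0.05. It had 11.2 and 12.1 TPM in WT mice (11.7 ± 0.643, SD, n = 2) and 8.27 and 9.06 TPM in Kdm3b+/- mice (8.66 ± 0.561, SD, n = 2), giving a log2 fold change of −0.39 (standard error 0.16, limma adjusted p = 0.263), and −0.18 with the length and GC correction. Eef1akmt1, which methylates another lysine of eEF1A, had 142 and 120 against 168 and 150 TPM (log2 fold change 0.28, standard error 0.14, limma adjusted p = 0.346), which was 0.083 with the correction. Eef1akmt2 overlapped between the groups by a small margin, with 74.7 and 61.4 against 86.8 and 74.5 TPM. Eef2kmt, which methylates eEF2, had 6.06 and 5.29 against 5.61 and 6.11 TPM, and it overlaps Alg1.

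Many mRNAs of the translation machinery are known to begin with a run of pyrimidines, the terminal oligopyrimidine (TOP) tract, through which mTORC1 controls their translation. The 9 members known for such a tract were Eef1a1, Eef1b2, Eef1d, Eef1g, Eef2, Eif3e, Eif3f, Eif3h and Eif4b. RefSeq windows were found for 5 of them. Their bases from 10 before the start to base 30 of the transcript (RefSeq, GRCm38.p6) are shown. Capitals mark the longest run of C and T, which need not be the tract. The stretches lie at chr9:78481695-78481734 (reverse strand), chr1:63176821-63176860, chr10:81176621-81176660, chr7:108934405-108934444 and chr15:102073763-102073802 (forward strand), in that order:
Eef1a1: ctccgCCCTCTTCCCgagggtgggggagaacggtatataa
Eef1b2: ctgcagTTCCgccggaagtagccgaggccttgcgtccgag
Eef2: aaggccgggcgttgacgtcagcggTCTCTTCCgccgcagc
Eif3f: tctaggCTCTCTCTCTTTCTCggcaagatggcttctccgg
Eif4b: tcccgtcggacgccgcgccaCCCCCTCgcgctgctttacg
The run was 10 bases in Eef1a1, 4 in Eef1b2, 8 in Eef2, 15 in Eif3f and 7 in Eif4b. Counted from the first base of the transcript, with negative values before it, the run began at −5 in Eef1a1 and −4 in Eef1b2 and Eif3f. It began at 15 in Eef2 and 11 in Eif4b, so none began exactly at the first base. The runs of Eif3f and Eef1a1 extended across the first base, however, so these annotated transcripts start within a run of C and T. The run of Eef1b2 ended before the first base. In all 32851 windows the same stretch had a median longest run of 5, and 22.6% had a run of at least 7, 14.4% of at least 8 and 1.07% of at least 15. The annotated starts need not be the starts used in this tissue.

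These TOP members did not all lie on the same side of WT, and none was called. Eef1a1 and Eef1b2 lay above WT without overlap, Eef1d lay below, and 6 overlapped, and their median log2 fold change was 0.095, beside 0.054 for the other 56 tested members. Eif3f, with the longest run shown, had 97.4 and 99.9 TPM in WT mice and 97.0 and 106 TPM in Kdm3b+/- mice. Eif3e had 99.8 and 89.4 against 99.0 and 102 TPM, Eif3h had 244 and 227 against 241 and 267 TPM, and Eif4b had 60.3 and 66.5 against 56.5 and 61.4 TPM. In each of these the groups overlapped. TPM measures the amount of mRNA and carries no information on its translation.

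The fold change of a factor varied with the length of its transcript, taken as the longest in GENCODE for the gene. Over the 65 members, log2 fold change and length had a Spearman correlation of −0.47, and over the 12904 tested genes with a length it was −0.23. Genes of a library share its fragment lengths and RNA quality, so they are not independent points, and the correlation is given as a description. Of the 17 members with transcripts under 2000 bases, 12 lay above WT without overlap and none below, with a median log2 fold change of 0.22. Of the 48 longer members, 11 lay above and 15 below, with a median of 0.00091. All genes were split in a like direction: 40.1% above and 13.0% below of 2749 short genes, and 13.0% above and 38.2% below of 10155 longer genes. The median log2 fold changes of these short and longer genes were 0.11 and −0.12, each lower than that of the members. The limit of 2000 bases was chosen with values known.

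After each library was corrected for length and GC content, the correlation was −0.073 over the members and −0.046 over all genes. The median log2 fold change became 0.11 for the shorter and 0.081 for the longer members, beside 0.0018 for all genes. At an unadjusted p under 0.05, 9 members were then higher and none was lower, beside 7.74% and 7.51% of all genes. These were Eif2ak2, Eif5a, Eef1e1 and Eif3k, as without the correction, and Eef2, Eif2s1, Eif4e, Eif5 and Eif4e3, while Eef1aknmt no longer passed this limit. None was called, and the part of RNA quality or library preparation in the length relation was not tested.

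**Figure D4:**
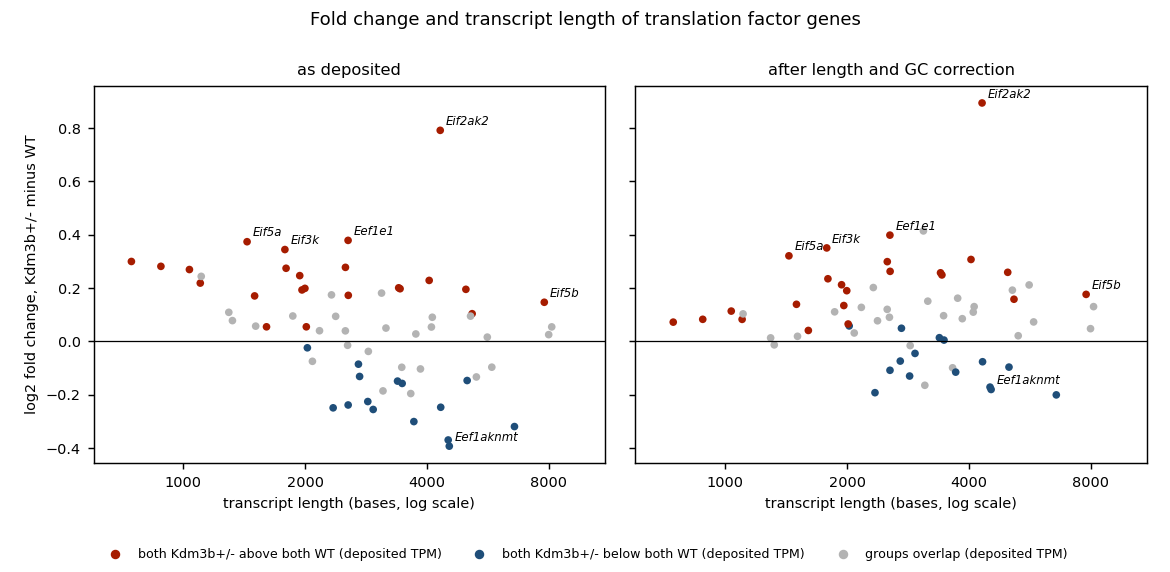
Log2 fold change (Kdm3b+/- minus WT) of the 65 tested translation factor genes against transcript length on a log axis, as deposited (left) and after the correction for length and GC content (right); colours give the overlap of the groups in the deposited TPM. On the left the genes under 2000 bases lie above or near 0 and the genes below WT are all longer, and on the right the slope is nearly flat while Eif2ak2, Eif5a, Eef1e1 and Eif3k keep their place.

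Other genes of the pathway were examined as a list of 45 genes, all of which were tested and none of which was called (beside 0.461% of all genes). Both Kdm3b+/- libraries lay above both WT libraries for 12 of them (26.7%, beside 19.2% of all genes) and below for 13 (28.9%, beside 32.0%), and the median log2 fold change was −0.033. At an unadjusted p under 0.05, none was higher and 5 were lower, which is 11.1% of the list and close to the 11.5% of all genes, so their number is not a result about the list. Their number changed when single libraries were left out, and it was 1 with FPKM or median-ratio scaling. Ppp1r15a, the stress-induced subunit of the phosphatase that acts on eIF2, had 91.9 and 96.4 TPM in WT mice and 76.8 and 68.8 TPM in Kdm3b+/- mice (log2 fold change −0.37, standard error 0.14, limma adjusted p = 0.237), and −0.17 with the length and GC correction. Pdcd4, an inhibitor of eIF4A, had 44.8 and 41.6 against 34.5 and 33.4 TPM (log2 fold change −0.34, standard error 0.14, limma adjusted p = 0.270). Paip2b, which keeps the poly(A)-binding protein from the mRNA, had 49.3 and 38.4 against 30.7 and 32.9 TPM (log2 fold change −0.44, standard error 0.16, limma adjusted p = 0.237).

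The remaining 2 of these 5 genes encode partners of the fragile X protein. Cyfip1, which represses translation at eIF4E, had 19.2 and 22.9 TPM in WT mice and 14.4 and 16.2 TPM in Kdm3b+/- mice (log2 fold change −0.43, standard error 0.16, limma adjusted p = 0.244), and Cyfip2 had 128 and 157 against 109 and 112 TPM (log2 fold change −0.36, standard error 0.14, limma adjusted p = 0.261), which was −0.23 with the length and GC correction. Pabpc1, the main poly(A)-binding protein, had 37.9 and 43.6 against 45.6 and 50.8 TPM (log2 fold change 0.24, standard error 0.15, limma adjusted p = 0.434). Of the targets that phosphorylated eIF2 induces, Atf4 had 117 and 113 against 122 and 154 TPM (log2 fold change 0.25, standard error 0.15, limma adjusted p = 0.421). Ddit3 had 83.2 and 81.4 against 94.9 and 89.9 TPM (log2 fold change 0.16, standard error 0.13, limma adjusted p = 0.536), and −0.010 with the length and GC correction. Of the 7 such targets in the list, 4 lay above WT without overlap, 1 lay below, and 2 overlapped, beside 19.2% above and 32.0% below of all genes.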

How the data were processed

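Reads were trimmed by the authors for base quality, mapped by STAR and quantified per gene by StringTie. The genome build, annotation and tool versions are not given in the sources used here. Of the gene identifiers, 99.6% lay on their RefSeq GRCm38.p6 chromosome. The deposited TPM are scaled by the authors to length and to 1000000 per library, the deposited FPKM to length and mapped fragments, and the deposited coverage is mean read depth, a signal used only for depth. TPM carries no read counts, so count models were not used.

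Rows with the same identifier were summed. Genes whose mean TPM reached 1 were tested on log2(TPM + 1) in R version 4.3.3 with limma version 3.58.1 (lmFit and a trended eBayes), using Benjamini-Hochberg adjustment over all 13652 genes. On this scale, fold changes of genes with low TPM are understated. With 2 mice per group, the p-values rest on a spread shared across genes. Single values per library were compared by an exact two-sided permutation test (SciPy version 1.17.1), also for 11 paralog ratios. The length and GC correction was a loess fit (span 0.3) per library on the longest GENCODE transcript, found for 94.5% of the genes.

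The members and all gene lists were chosen with earlier results of these data known. Values in all 4 libraries were given for genes with an unadjusted p under 0.05, the highest and lowest gene of each role, paralogs, kinases, TOP members, members on chromosome 18, Atf4, Ddit3 and Pabpc1; values of further genes were added once they were known. The alternatives were a pseudocount of 0.1, FPKM, no filter, a minimum mean TPM of 5, scaling by median ratios or quantiles, eBayes without trend or robust (statmod version 1.5.0), the highest row per gene, the replicate block, the length and GC correction with and without it, and each library left out. The scripts were tested on simulated data.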

Additional observations from a re-analysis of the deposited data

How the results depend on the processing

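No translation factor gene and no gene of the pathway list was called under any of the 12 other settings or with any library left out. At an unadjusted p under 0.05, the higher members numbered 4, and 7 with median-ratio scaling (beside 8.11% of all genes), 2 with eBayes without trend and 9 with the length and GC correction (8 with the replicate block added). The lower members numbered 1, and 2 with no filter, and 0 with median-ratio scaling, quantile normalization and the length and GC correction with or without the block. With the replicate block alone, 7 were higher and 4 lower (beside 7.31% and 16.2% of all genes), the lowest adjusted p was 0.0613, and 600 of all genes (4.39%) were called; same-numbered mice are different animals that share only a number, and their deviations correlated at 0.12. Members without overlap numbered 35 above with median-ratio scaling and 7 below with the length and GC correction, with or without the block. In the pathway list, 0 were higher at this limit, and 1 with no filter, 3 with quantile normalization, 5 with the length and GC correction and 6 with the block added; 5 were lower, and 1 with FPKM or median-ratio scaling, and 2 with quantile normalization or the length and GC correction with or without the block, which left 7 below without overlap. The median of all members was 0.12 with FPKM, 0.13 with median-ratio scaling, 0.089 with quantile normalization and 0.091 with the length and GC correction (both fits). The median of all genes rose as well, from −0.070 in the main fit to −0.010, −0.0062, 0.0053 and 0.0018. These settings thus move all genes upward, and the medians of the roles below include that shift. In these settings the median of eIF2B was 0.091, 0.10, 0.077 and 0.058, and that of eIF3 was 0.15 with FPKM and 0.16 with median-ratio scaling. Scanning factors had 0.22 and 60S joining and hypusine factors 0.24 with median-ratio scaling, eIF4E inhibitors 0.15 with quantile normalization, and eEF2 with its kinase 0.11 with the length and GC correction (both fits). Of the 30 genes whose log2 fold change was followed in every setting (22 members and others of the pathway), Ddit3 reversed, to −0.010 with the length and GC correction with and without the block; their other 356 values kept direction, as did all 120 with a library left out, though 15 of the 22 members moved by over 1.5 times. Over all 65 members, 11 changed sign with that correction, 4 of them (Eif2b4, Eif3c, Eif4e2 and Eif4h) without overlap as deposited. The share of TPM without the 20 highest genes differed by 0.09999 percentage points, and by 0.0730 to 0.0947 with a library left out.

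With a library left out, the lone mouse of a group is assumed to vary like the others. The counts of higher and lower members at the unadjusted limit then changed, and members without overlap numbered 28 to 36 above and 17 to 24 below. In the pathway list the counts at that limit changed as well, and 14 to 20 genes lay above and 15 to 24 below without overlap. The medians ran from 0.056 to 0.11 for all members, 0.079 to 0.23 for eEF1, −0.035 to 0.054 for eIF2B, 0.038 to 0.16 for eIF3, −0.073 to 0.15 for eIF4E inhibitors and −0.074 to 0.073 for eIF4F. Depth limits Eif2ak2 in particular, at under 2 TPM in every library, and since TPM keeps no read counts, the counting error of such low values is unknown.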
